A study of Mus musculus with 8 samples.

Results

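The ErbB receptors and their EGF-family ligands were followed in embryonic mouse heart muscle cells with and without simvastatin. The 8 genes were taken by symbol from a fixed list, out of 49315 Ensembl genes in each table. They are the receptor genes Egfr, Erbb2, Erbb3 and Erbb4 and the ligand genes Nrg1, Hbegf, Areg and Ereg. The 4 simvastatin libraries came from C57/Bl6 cardiomyocytes of embryonic day 12.5 treated with 10 µM simvastatin, and the 4 control libraries from cardiomyocytes of the same strain and stage labelled as controls. Both groups are labelled as pooled from both sexes, and the labels describe RNA taken from dissected embryonic hearts. Simvastatin blocks the enzyme that makes mevalonate, the precursor of cholesterol and of the lipid anchors on small GTPases. How the cells were kept, the vehicle and the time in the drug are not stated.

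Totals ran from 30474586 to 34993255 counts in the simvastatin libraries and from 31457872 to 35215640 in the controls. The labels do not say whether replicates came from different litters or preparations, so the p-values reflect sample-to-sample spread that may be only technical. A set number stands in the header of each count column, with set 1 for replicates 1 and 3 of either group and set 2 for replicates 2 and 4, and its meaning is not stated. Of 8 cardiomyocyte markers 1 rose and 0 fell. Their summed level was 44237 to 49110 CPM with simvastatin and 38108 to 48484 CPM in controls. CPM is the usual depth-scaled read count of RNA-seq, here on TMM-scaled library totals. In set 1 that sum lay apart, at 44333 to 45855 CPM with simvastatin and 38108 to 39349 CPM in controls. In set 2 it overlapped, at 44237 to 49110 CPM with simvastatin and 45033 to 48484 CPM in controls. Tnnt2, cardiac troponin T, stood at 11680 ± 443 CPM with simvastatin and 11190 ± 577 CPM in controls (SD, n = 4 each). Myh7, the slow myosin heavy chain, was the one that rose, to 3199 ± 706 CPM with simvastatin, against 1440 ± 347 CPM in controls (log2 fold change 1.15 ± 0.20, edgeR adjusted p = 0.00255). Nkx2-5, a cardiac transcription factor, ran from 3.97 to 29.7 CPM with simvastatin and from 3.56 to 16.6 CPM in controls. Its log2 fold change was 1.64 in set 1 alone and -1.73 in set 2 alone (edgeR interaction adjusted p = 0.0788). Genes of other cells were also counted, and some moved with the treatment. Over all genes tested, edgeR called 7.79% higher and 9.61% lower with simvastatin. Of 6 epicardial markers 1 rose and 2 fell. Msln rose (log2 fold change 0.67 ± 0.11, edgeR adjusted p = 0.00185), and Wt1 was among those that fell (log2 fold change -1.98 ± 0.23, edgeR adjusted p = 0.000261). The sum over the 6 was 205 to 280 CPM with simvastatin and 166 to 268 CPM in controls. In set 1 it was 205 to 225 CPM with simvastatin and 239 to 268 CPM in controls. In set 2 it lay the other way, at 264 to 280 CPM with simvastatin and 166 to 191 CPM in controls. Of 4 macrophage markers tested 2 fell, Adgre1 and Cx3cr1, with a sum over 5 markers of 30.5 to 39.7 CPM with simvastatin and 39.4 to 50.9 CPM in controls. Of 5 red cell genes 3 rose, with a sum of 14.3 to 32.5 CPM with simvastatin and 7.07 to 10.8 CPM in controls. The part of these cells in the results was not tested. Summed over 9 endothelial and endocardial markers, the level was 227 to 286 CPM with simvastatin and 225 to 309 CPM in controls. In set 1 this level overlapped, at 265 to 286 CPM with simvastatin and 225 to 309 CPM in controls. In set 2 the level was lower with simvastatin, at 227 to 248 CPM, against 275 to 277 CPM in controls. Summed over 8 fibroblast and mesenchyme markers it was 1236 to 1440 CPM with simvastatin and 1145 to 2541 CPM in controls. In such bulk samples, fewer cells of a type and less RNA per cell cannot be told apart.

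ErbB receptors are tyrosine kinases of the cell surface that work in pairs. The ligands are made as membrane proteins, most are cut free by surface proteases, and each carries an EGF-like fold that binds the receptor. In the developing heart neuregulin 1, from the endocardium, binds ErbB4 and ErbB3, which pair with ErbB2, a receptor with no known ligand of its own. In mice this circuit is needed for trabeculation and cardiomyocyte growth. EGFR, a receptor for amphiregulin, epiregulin and HB-EGF though not the only one for each, acts in the shaping of the heart valves.

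What the ligands share is the EGF-like motif, shown because it is the receptor-binding part that defines them. It was found in the translated coding sequence of the GENCODE transcripts as 6 cysteine codons at fixed spacing, with 36 codons in Areg and Ereg and 40 in Nrg1. The capitals below are those cysteine codons, in the coding strand, and each stretch lies on 2 coding exons. The Areg stretch lies within chr5:91143614-91144364 (GRCm38, plus strand), the Ereg stretch within chr5:91088496-91089111 (plus strand) and the Nrg1 stretch within chr8:31837698-31849398 (minus strand).
Areg: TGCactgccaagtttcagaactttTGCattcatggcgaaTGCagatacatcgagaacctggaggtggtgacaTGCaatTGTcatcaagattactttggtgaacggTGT
Ereg: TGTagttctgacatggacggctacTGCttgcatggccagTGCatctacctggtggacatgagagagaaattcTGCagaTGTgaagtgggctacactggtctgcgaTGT
Nrg1: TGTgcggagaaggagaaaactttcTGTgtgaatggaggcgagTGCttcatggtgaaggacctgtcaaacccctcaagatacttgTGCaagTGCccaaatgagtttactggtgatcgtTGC
The spacing between the cysteine codons was 7, 4, 10, 1 and 8 codons in Areg and in Ereg, and 7, 5, 13, 1 and 8 in Nrg1. All 12 protein-coding Nrg1 transcripts of the annotation hold the motif. Reads were counted per gene, so the Nrg1 values below do not separate its isoforms.

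Of the 7 members that could be tested, Nrg1 and Hbegf fell with simvastatin and 0 rose. The test was edgeR's quasi-likelihood test over 16126 genes at a Benjamini-Hochberg adjusted p under 0.05, and it called 17.4% of all genes tested, with 7.79% higher and 9.61% lower with simvastatin. In that test 0 members rose and 4 were lower at an unadjusted p under 0.05. The share of all genes at that unadjusted threshold was not computed, so counts at it, here and below, cannot be weighed against it. DESeq2 called 3 members lower and 0 higher, and limma-voom 2 lower and 0 higher. With the same 16126 genes entered, DESeq2 called 1841 genes lower and 1693 higher, and limma-voom 1535 lower and 1264 higher. The groups did not overlap in CPM for 2 of the 8 members, against 23.1% of genes tested. Areg did not pass the filter on low counts and was not in the main test.

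**Figure D1:**
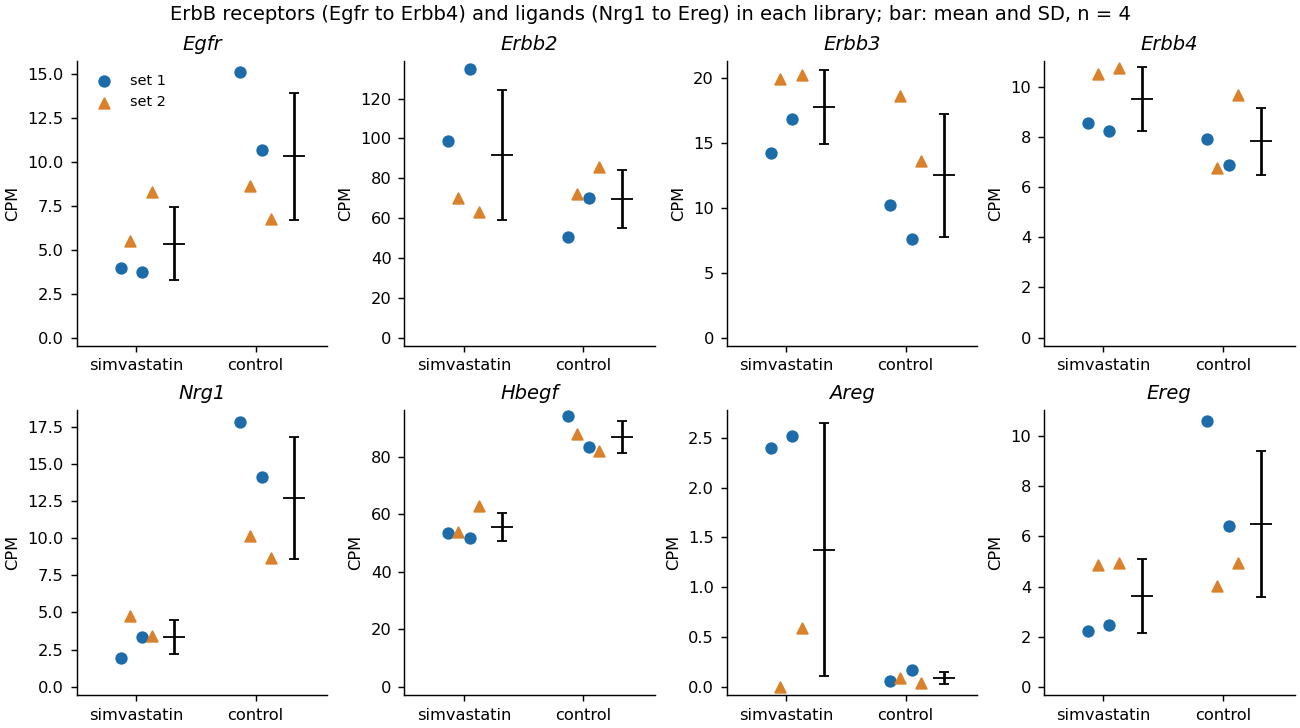
CPM of each member in each library, simvastatin left and control right in each panel, with circles for set 1, triangles for set 2 and a bar for the mean and SD of 4 libraries. Every simvastatin library lay below every control library for Nrg1 and Hbegf, while Areg was above 2 CPM in the 2 set 1 simvastatin libraries alone.

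Nrg1 encodes neuregulin 1 (ENSMUSG00000062991, chromosome 8, 31814551 to 32884029, minus strand). It stood at 1.95, 4.75, 3.32 and 3.42 CPM in simvastatin replicates 1 to 4, against 17.8, 10.2, 14.1 and 8.67 CPM in control replicates 1 to 4. The highest simvastatin library was below the lowest control. Its mean was 3.36 ± 1.14 CPM with simvastatin and 12.7 ± 4.12 CPM in controls (SD, n = 4 each), 3.77-fold lower with simvastatin (log2 fold change -1.92 ± 0.30 SE, edgeR adjusted p = 0.00147). The call held in every one of the 19 alternatives run, with log2 fold changes from -2.62 in set 1 alone to -1.20 in set 2 alone. Nrg1 shares 482 exon bases with Gm26578 on the other strand, which had 21 counts in all libraries together against 2166 for Nrg1.

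Nrg1 is known as an endocardial gene in the embryonic heart, and endothelial and endocardial markers did not move as one. Of 9 such markers 2 rose and 2 fell. Emcn, an endothelial surface sialomucin, fell to 16.2, 22.1, 15.6 and 24.0 CPM with simvastatin, against 114, 82.7, 89.3 and 78.2 CPM in controls. Npr3, a natriuretic peptide receptor enriched in endocardium, fell to 0.79 ± 0.09 CPM with simvastatin, against 3.69 ± 0.54 CPM in controls (log2 fold change -2.22 ± 0.21, edgeR adjusted p = 8.26e-05). Tek, the angiopoietin receptor, rose (log2 fold change 1.40 ± 0.20, edgeR adjusted p = 0.000848), and so did Nfatc1, by 0.51 (edgeR adjusted p = 0.0493, a call kept in 1 of 8 fits without a library, which was the one without simvastatin replicate 1). Pecam1 stood at 58.4 ± 10.1 CPM with simvastatin and 54.8 ± 9.0 CPM in controls (edgeR adjusted p = 0.762). The part of these cells in the Nrg1 result was not tested.

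Hbegf encodes heparin-binding EGF-like growth factor (ENSMUSG00000024486, chromosome 18, 36504929 to 36515805 in the deposited tables, minus strand). It stood at 53.6, 54.0, 51.8 and 62.8 CPM in simvastatin replicates 1 to 4, against 94.1, 88.0, 83.5 and 82.2 CPM in the controls. The groups lay apart, and the spread within each was small. Its mean was 55.5 ± 4.94 CPM with simvastatin and 86.9 ± 5.41 CPM in controls, 1.57-fold lower with simvastatin (log2 fold change -0.65 ± 0.10, edgeR adjusted p = 0.00125). Set 1 alone gave -0.77 and set 2 alone -0.54, and the call held in every one of the 19 alternatives run.

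Ereg encodes epiregulin (ENSMUSG00000029377, chromosome 5, 91074622 to 91093646, plus strand). It stood at 2.21, 4.87, 2.45 and 4.94 CPM with simvastatin and at 10.6, 4.03, 6.41 and 4.95 CPM in controls. The set 1 libraries separated the groups and the set 2 libraries overlapped. Over all libraries the log2 fold change was -0.85 ± 0.36 and did not pass (edgeR adjusted p = 0.145). In set 1 alone it was -1.88 (edgeR adjusted p = 0.0188), and in set 2 alone 0.13 (edgeR adjusted p = 0.732). Ereg shares 141 exon bases with the antisense gene Gm19610, which had 92 counts over all libraries against 1351 for Ereg, and whether strand was used in counting is not stated.

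Areg encodes amphiregulin (ENSMUSG00000029378, chromosome 5, 91139599 to 91148432, plus strand). It had 76, 0, 78 and 18 counts in simvastatin replicates 1 to 4, against 2, 3, 6 and 1 counts in control replicates 1 to 4. In CPM that was 2.39, 0, 2.52 and 0.593 with simvastatin and 0.0570, 0.0888, 0.172 and 0.0324 in controls. The 2 set 1 libraries with simvastatin were the highest, while simvastatin replicate 2 had 0 of 34993255, which allows up to 0.0857 CPM (3 counts, for counting error only), near the control values. Means were 1.38 ± 1.27 CPM with simvastatin and 0.0874 ± 0.0607 CPM in controls (exact two-sided permutation test, p = 0.143, where 4 libraries against 4 cannot go below 0.0286). Without the filter on low counts edgeR gave Areg an adjusted p of 0.000305. The other fits that kept Areg gave edgeR adjusted p from 0.00172, without simvastatin replicate 2, to 0.0816, without control replicate 4. Set 1 alone, which called 9.82% of its genes tested, gave 0.00822. In these fits the filter kept Areg through simvastatin libraries only, since no control had more than 6 counts. Their p-values thus rest on a gene let in by the group where it was high, and are no support for a rise.

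The promoters of Areg and Egfr are shown from RefSeq (GRCm38.p6), as the gene nearest to absent in controls beside a receptor gene counted in every library. Each window runs from 250 bases before the start site to 50 after it, and 4 of the 8 members had an entry in that table. The letters searched on both strands were the cAMP response element TGACGTCA, the AP-1 site TGANTCA, the TEAD site GGAATG, the GC box GGGCGG and the TATA box TATAAA, and capitals mark every match. The Areg window is chr5:91139349-91139648 (plus strand) and the Egfr window chr11:16751953-16752252 (plus strand).
Areg: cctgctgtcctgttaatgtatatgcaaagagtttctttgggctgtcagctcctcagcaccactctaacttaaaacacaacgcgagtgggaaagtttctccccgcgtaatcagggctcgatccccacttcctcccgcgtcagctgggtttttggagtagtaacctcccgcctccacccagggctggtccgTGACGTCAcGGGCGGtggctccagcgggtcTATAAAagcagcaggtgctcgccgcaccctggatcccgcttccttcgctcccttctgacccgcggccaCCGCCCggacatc
Egfr: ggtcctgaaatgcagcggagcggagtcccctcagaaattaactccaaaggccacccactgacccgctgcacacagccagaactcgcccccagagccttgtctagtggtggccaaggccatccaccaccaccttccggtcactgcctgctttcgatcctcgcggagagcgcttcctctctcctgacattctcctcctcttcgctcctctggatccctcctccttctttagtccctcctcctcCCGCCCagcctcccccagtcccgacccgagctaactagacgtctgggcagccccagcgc
The Areg window held the cAMP response element, 61 bases before the start site, 2 GC boxes and a TATA box 31 bases before the start site. The Egfr window held 1 GC box. Among all 32851 tabulated promoters, 1.79% hold the cAMP response element, 13.6% the TATA box, 35.7% the GC box, 7.81% the AP-1 site and 14.7% the TEAD site. A match is a description of the letters only.

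The receptor genes gave no call in the main test. Egfr, the EGF receptor (ENSMUSG00000020122, chromosome 11, 16752203 to 16918158, plus strand), stood at 3.94, 5.50, 3.71 and 8.26 CPM with simvastatin and at 15.2, 8.64, 10.7 and 6.77 CPM in controls. Only simvastatin replicate 4 overlapped the controls. The log2 fold change was -0.95 ± 0.31 and lay just short of the threshold (edgeR adjusted p = 0.0588). It was past it with DESeq2 (adjusted p = 0.0163), without control replicate 4 (adjusted p = 0.0375) and without simvastatin replicate 4 (adjusted p = 0.0194), and over all alternatives the adjusted p ran from 0.0101 to 0.686. Set 1 alone gave -1.77 and set 2 alone -0.17.

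Erbb2, the shared pairing partner (ENSMUSG00000062312, chromosome 11, 98412470 to 98437716, plus strand), stood at 98.5, 70.2, 134.6 and 63.1 CPM with simvastatin and at 50.5, 72.0, 70.0 and 85.7 CPM in controls. In set 1 each simvastatin library was above each control, and in set 2 each was below. The log2 fold change over the 8 libraries was 0.40 ± 0.24 (95% interval -0.13 to 0.92, edgeR adjusted p = 0.304), with 0.93 in set 1 alone and -0.24 in set 2 alone. Erbb2 shares 9 exon bases with Mien1 on the other strand.

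Erbb3 (ENSMUSG00000018166, chromosome 10, 128567523 to 128589652, minus strand) encodes a neuregulin receptor that needs a partner for kinase activity. It stood at 14.2, 19.9, 16.8 and 20.2 CPM with simvastatin and at 10.2, 18.6, 7.61 and 13.6 CPM in controls. Within each set both simvastatin libraries were above both controls, and set 2 libraries were the higher ones in each group. Its log2 fold change was 0.51 ± 0.25 (95% interval -0.04 to 1.06, edgeR adjusted p = 0.207). With set as a term it was 0.56 ± 0.17 (edgeR adjusted p = 0.0436), without control replicate 2 it was 0.76 (edgeR adjusted p = 0.0433), and over all alternatives the adjusted p ran from 0.0433 to 0.362. Set 2 over set 1 was 0.61 ± 0.17 on the log2 scale in the fit with both terms (edgeR adjusted p = 0.163). Erbb3 is also a Schwann cell and neural crest gene, and Sox10 and Foxd3, which define those cells, were at 5 counts or fewer in every library, with Foxd3 at 0 in all 8.

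Erbb4, the neuregulin receptor of cardiomyocytes (ENSMUSG00000062209, chromosome 1, 68032186 to 69108059, minus strand), stood at 8.57, 10.5, 8.23 and 10.7 CPM with simvastatin and at 7.92, 6.78, 6.90 and 9.68 CPM in controls. The groups overlapped in 1 control, replicate 4. Over all libraries the log2 fold change was 0.28 ± 0.17 (95% interval -0.09 to 0.66, edgeR adjusted p = 0.304), and none of the 19 alternatives called it (adjusted p from 0.162 to 0.722). Set 1 alone gave 0.17 and set 2 alone 0.37.

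**Figure D2:**
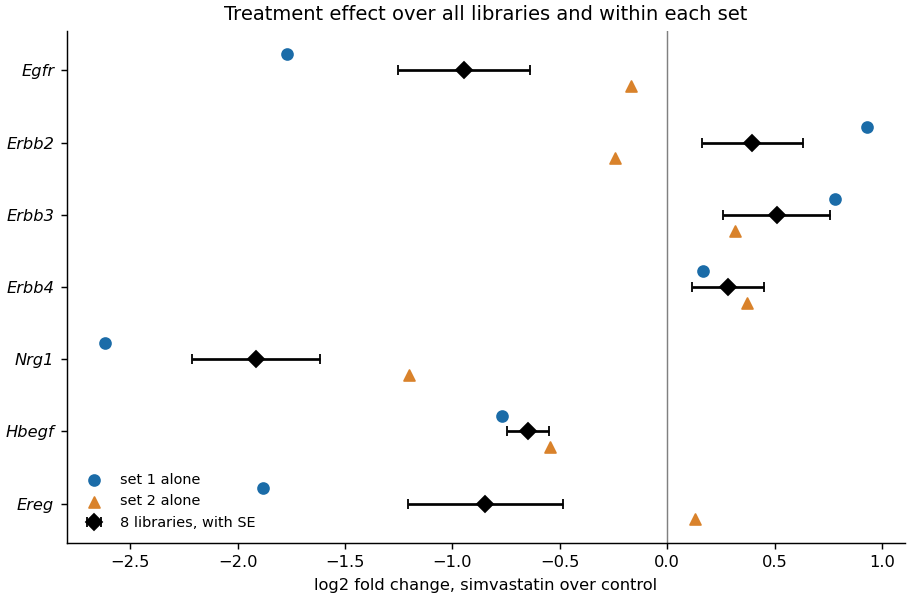
Log2 fold change, simvastatin over control, of the 7 members tested, with diamonds for the fit over 8 libraries (bars, SE), circles for set 1 alone and triangles for set 2 alone. Nrg1 and Hbegf lay below 0 in both sets, Egfr and Ereg were far below 0 in set 1 alone, and Erbb2 lay on either side of 0.

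Whether the difference between the groups varied with the set was tested as an interaction, and no member passed in edgeR. The log2 fold change in set 2 minus that in set 1 was 2.0 for Ereg (edgeR interaction adjusted p = 0.0806), 1.59 for Egfr (adjusted p = 0.116), -1.19 for Erbb2 (adjusted p = 0.114) and 1.40 for Nrg1 (adjusted p = 0.186). Thus 0 of 7 members passed, against 0.0558% of all genes tested. At an unadjusted p under 0.05 there were 4 members, with no share of all genes computed to weigh that count against. Of 2 tools chosen after seeing the data, limma-voom also called 0 members, among 8 genes in all. DESeq2 called 4 members, among 530 genes in all, with the same 16126 genes entered. For Erbb3, Erbb4 and Hbegf the interaction adjusted p in edgeR was 0.652, 0.910 and 0.790.

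Of the 8 mesenchyme markers, 3 fell over all libraries, Pdgfra, Tcf21 and Col3a1, and their values differed by set. Pdgfra, the mesenchymal receptor for platelet-derived growth factor, stood at 6.87, 13.5, 9.48 and 13.7 CPM with simvastatin and at 43.5, 15.1, 31.5 and 16.2 CPM in controls. Tcf21, a transcription factor of cardiac fibroblast progenitors, had a log2 fold change of -2.63 in set 1 alone and -0.17 in set 2 alone (edgeR interaction adjusted p = 0.0351). Col3a1, a fibrillar collagen, had -1.61 in set 1 alone and -0.07 in set 2 alone (edgeR interaction adjusted p = 0.0277). In edgeR 3 of the 8 fell and 0 rose, with 4 lower and 1 higher at an unadjusted p under 0.05, while DESeq2 called 3 lower and 0 higher and limma-voom 1 lower and 0 higher. The calls of Tcf21, Pdgfra and Col3a1 ended without any 1 of the 4 set 1 libraries, and that of Col3a1 also without simvastatin replicate 2. With set as a term these calls ended too (edgeR adjusted p of 0.0507 for Pdgfra, 0.0595 for Tcf21 and 0.0555 for Col3a1). Other markers of the list ran the other way without a call: Dcn, decorin, stood at 95.8 ± 5.96 CPM with simvastatin and 66.5 ± 21.4 CPM in controls (log2 fold change 0.53, edgeR adjusted p = 0.106), and in set 2 alone Lum had 0.71 and Col1a2 0.50. Summed over the 8 markers, set 1 stood at 1236 to 1260 CPM with simvastatin and 2310 to 2541 CPM in controls, and set 2 at 1348 to 1440 CPM with simvastatin and 1145 to 1154 CPM in controls. Their part in the Egfr and Ereg values was not tested.

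Levels can be compared between genes only per length, as CPM per kilobase of exon. On that scale Hbegf was highest, at 23.4 ± 2.08 with simvastatin and 36.6 ± 2.28 in controls, followed by Erbb2 at 17.6 ± 6.24 with simvastatin and 13.3 ± 2.78 in controls. These levels overlapped with simvastatin and lay apart in controls. Erbb3 came next, at 2.95 ± 0.47 with simvastatin and 2.08 ± 0.79 in controls. The other members followed with simvastatin, Ereg at 0.88 ± 0.36, Erbb4 at 0.77 ± 0.10, Egfr at 0.47 ± 0.19, Nrg1 at 0.32 ± 0.11 and Areg between 0 and 2.07. In controls Ereg stood at 1.58 ± 0.71, Nrg1 at 1.23 ± 0.40, Egfr at 0.91 ± 0.32, Erbb4 at 0.63 ± 0.11 and Areg at 0.07 ± 0.05 CPM per kilobase. In the order of the control means, Erbb3 overlapped Ereg, Ereg overlapped Nrg1, Nrg1 overlapped Egfr and Egfr overlapped Erbb4, while Areg lay below them all. By its mean Nrg1 was the fifth of the 8 in controls and the last with simvastatin, where it overlapped Egfr. In the order of the simvastatin means Areg overlapped Ereg, Ereg overlapped Erbb4 and Erbb4 overlapped Egfr, and in simvastatin replicate 2 Areg, at 0, was below Nrg1.

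**Figure D3:**
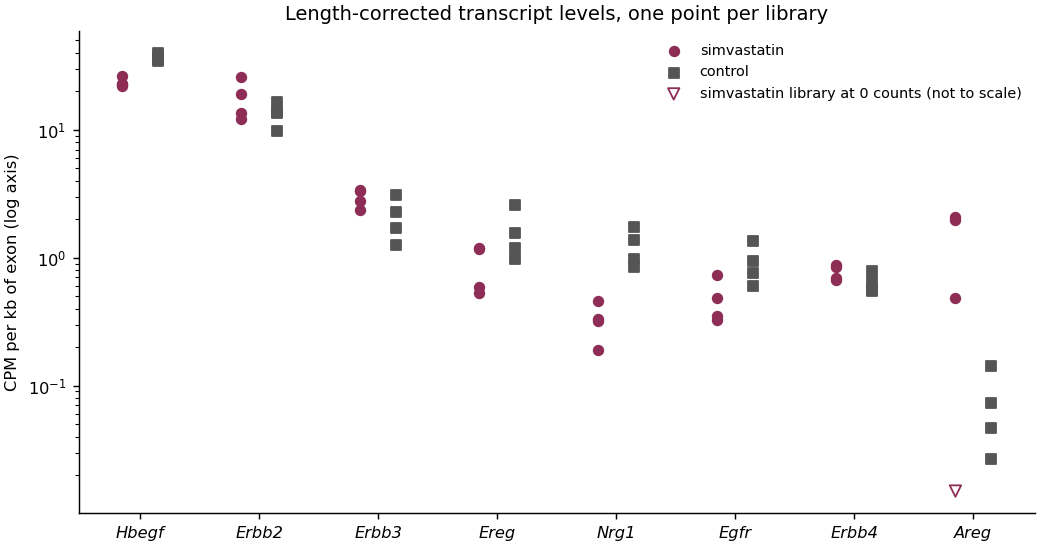
CPM per kilobase of exon on a log axis, with 1 point per library, circles for simvastatin and squares for control, in the order of the control means. The open triangle stands for the simvastatin library with 0 Areg counts and is not on the scale. Hbegf and Erbb2 lay above 9 in every library, and the other members mostly between 0.1 and 4.

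Erbb2 made up most of the receptor transcripts per length in both groups, with 71.0% to 87.2% of the 4 receptors' sum with simvastatin and 72.5% to 82.9% in controls. Egfr held 1.11% to 4.27% with simvastatin and 2.97% to 10.0% in controls. Erbb4 averaged 3.79% in each group. Among the 4 ligands Hbegf held 88.0% to 93.3% with simvastatin and 90.1% to 94.8% in controls. Nrg1 held 0.746% to 1.88% with simvastatin and 2.28% to 3.91% in controls, without overlap. Areg held 0% to 8.35% with simvastatin and 0.0726% to 0.370% in controls. These shares follow from the levels above and were not tested.

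The genes most like the called members were found by the smallest root-mean-square difference of centred log2 CPM over the 8 libraries, among 12263 protein-coding genes with at least 1 CPM on average. For Nrg1 these were Pbp2 (0.17 on the log2 scale) and Sema3e, which encodes a secreted semaphorin (0.17). Sema3e averaged 8.30 CPM with simvastatin and 32.8 CPM in controls. For Hbegf they were Tinf2, a telomere protein gene (0.06), and Fli1, an ETS transcription factor gene of endothelial and blood cells (0.07). Fli1 averaged 7.58 CPM with simvastatin and 12.2 CPM in controls.

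Of 7 other EGF-family ligands 4 could be tested, and 2 of those rose and 0 fell in edgeR. For this list and those below, edgeR called 17.4% of all genes tested, with 7.79% higher and 9.61% lower. Their median log2 fold change was 0.57, against 0.01 over all genes tested. At an unadjusted p under 0.05 there were also 2 higher and 0 lower, and DESeq2 and limma-voom each called 2 higher and 0 lower. Tgfa, transforming growth factor alpha, a ligand of EGFR, stood at 9.92, 12.7, 14.3 and 12.6 CPM with simvastatin and at 7.49, 8.79, 6.32 and 8.58 CPM in controls (log2 fold change 0.67 ± 0.17, edgeR adjusted p = 0.0182). Btc, betacellulin, which binds EGFR and ErbB4, stood at 2.99, 2.53, 5.48 and 1.94 CPM with simvastatin and at 1.82, 0.917, 1.43 and 1.10 CPM in controls (log2 fold change 1.29 ± 0.35, edgeR adjusted p = 0.0288). No simvastatin library of these genes overlapped a control. The Tgfa call ended without simvastatin replicate 3 (edgeR adjusted p = 0.0640). The Btc call ended when simvastatin replicate 1 or 3, or control replicate 2, 3 or 4, was left out (edgeR adjusted p up to 0.0830). Set 1 alone called neither.

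Of 11 shedding proteases and their partners, which free the ligands, 4 fell and 2 rose, and the median of their log2 fold changes was -0.32. Adam17 and Adam10, the main sheddases of these ligands, are named for their role: Adam17 stood at 63.0 ± 9.66 CPM with simvastatin and 62.1 ± 11.8 CPM in controls, and Adam10 at 267 ± 50.5 CPM with simvastatin and 238 ± 45.1 CPM in controls (edgeR adjusted p = 0.955 and 0.584). Adam12, which can shed HB-EGF, fell to 0.693, 1.01, 0.419 and 1.35 CPM with simvastatin, against 7.72, 3.97, 9.56 and 2.91 CPM in controls (log2 fold change -2.80 ± 0.45, edgeR adjusted p = 0.00177). Adam19, which acts on neuregulin in cell assays, fell to 46.0 ± 8.19 CPM with simvastatin, against 72.0 ± 5.12 CPM in controls (log2 fold change -0.64 ± 0.13, edgeR adjusted p = 0.00692). Bace2, a membrane aspartic protease, rose to 26.0 ± 7.65 CPM with simvastatin, against 10.5 ± 1.12 CPM in controls. Rhbdf2, the inactive rhomboid iRhom2 that matures ADAM17, rose to 43.0 ± 4.50 CPM with simvastatin, against 26.0 ± 4.30 CPM in controls (log2 fold change 0.72 ± 0.14, edgeR adjusted p = 0.00512). The 2 rises were 1 in set 1 alone. The 4 falls were 3 in limma-voom, without the count filter and in set 1 alone. They were also 3 in each fit without a library, apart from that without control replicate 3, which kept 4. They were 5 in DESeq2, with set as a term and in set 2 alone.

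Of 31 adaptors and signal transducers behind the receptors 3 rose and 0 fell in edgeR, and the median of their log2 fold changes was 0.10. At an unadjusted p under 0.05, 7 were higher and 2 lower, and DESeq2 and limma-voom each called 3 higher and 0 lower. Grb2, the adaptor that links receptors to RAS, stood at 83.4, 89.6, 85.4 and 78.6 CPM with simvastatin and at 39.8, 50.2, 43.3 and 48.2 CPM in controls (log2 fold change 0.89 ± 0.10, edgeR adjusted p = 0.00024). The groups lay far apart against their spread. Nras, which encodes a RAS protein that carries a lipid anchor made from mevalonate, rose by 0.51 ± 0.09 on the log2 scale (edgeR adjusted p = 0.00214). With set as a term 5 rose, in set 1 alone 1 rose, and in set 2 alone 3 fell.

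Of 19 inhibitors and turnover factors of the receptors 16 were tested, and 1 rose and 1 fell, with a median of 0.14. Rnf41, also known as Nrdp1, a ubiquitin ligase for ErbB3, stood at 74.2 ± 4.36 CPM with simvastatin and 57.2 ± 3.41 CPM in controls (log2 fold change 0.38 ± 0.09, edgeR adjusted p = 0.0165). That call ended without simvastatin replicate 3 (edgeR adjusted p = 0.0674). Lrrk1, a kinase that directs EGFR traffic, fell by 0.52 ± 0.15 on the log2 scale (edgeR adjusted p = 0.0322), a call that ended when replicate 1 or 4 of either group was left out (edgeR adjusted p up to 0.0818). Of 16 receptor partners and chaperones 15 were tested, and 3 rose and 1 fell, with a median of 0.15. Cd9, a tetraspanin that binds pro-HB-EGF, rose to 124 ± 24.1 CPM with simvastatin, against 64.0 ± 11.6 CPM in controls (edgeR adjusted p = 0.00316). Cd44, a hyaluronan receptor that presents growth factors, rose by 0.80 ± 0.18, and Gpc1, a heparan sulfate proteoglycan, by 0.68 ± 0.17 on the log2 scale (edgeR adjusted p = 0.0104 and 0.0180). The Gpc1 call ended without control replicate 2 or simvastatin replicate 3 (edgeR adjusted p up to 0.0582). Cav1, the caveolar protein that can bind EGFR, fell to 69.3 ± 11.0 CPM with simvastatin, against 141 ± 31.3 CPM in controls (log2 fold change -1.03 ± 0.17, edgeR adjusted p = 0.00188). The 3 rises in this list were 1 in set 1 alone and 5 in set 2 alone.

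Of 22 ERK feedback and output genes 21 were tested, of which 3 fell and 1 rose, against 17.4% of all genes tested called. The median of their log2 fold changes was -0.30. Spry1, a feedback inhibitor of receptor kinases, fell to 1.39, 1.84, 2.29 and 2.14 CPM with simvastatin, against 11.5, 8.17, 14.4 and 8.35 CPM in controls (log2 fold change -2.47 ± 0.25, edgeR adjusted p = 9.85e-05). Spry4, of the same family, moved the other way and rose to 58.9 ± 3.0 CPM with simvastatin, against 37.1 ± 5.53 CPM in controls (edgeR adjusted p = 0.00344). Dusp6, the ERK phosphatase, fell to 56.9 ± 6.38 CPM with simvastatin, against 87.7 ± 14.9 CPM in controls (log2 fold change -0.62 ± 0.14, edgeR adjusted p = 0.00931). Etv4, an ETS factor induced by ERK, fell by 1.39 ± 0.39 on the log2 scale (edgeR adjusted p = 0.0309), and of the 8 fits without a library only those without control replicate 2 or 4 kept this call (adjusted p up to 0.0867 in the others). It was kept in DESeq2 (adjusted p = 0.00312), but not in limma-voom (adjusted p = 0.0592). The 3 falls were 2 in limma-voom and without control replicate 1 or simvastatin replicate 1, 2 or 4, and they were 5 without control replicate 4, 5 without the count filter, 5 in DESeq2, 5 with set as a term and 5 in each set alone. The 1 rise was 2 without control replicate 4, 2 in DESeq2, 2 with set as a term and 0 in set 1 alone.

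**Figure D4:**
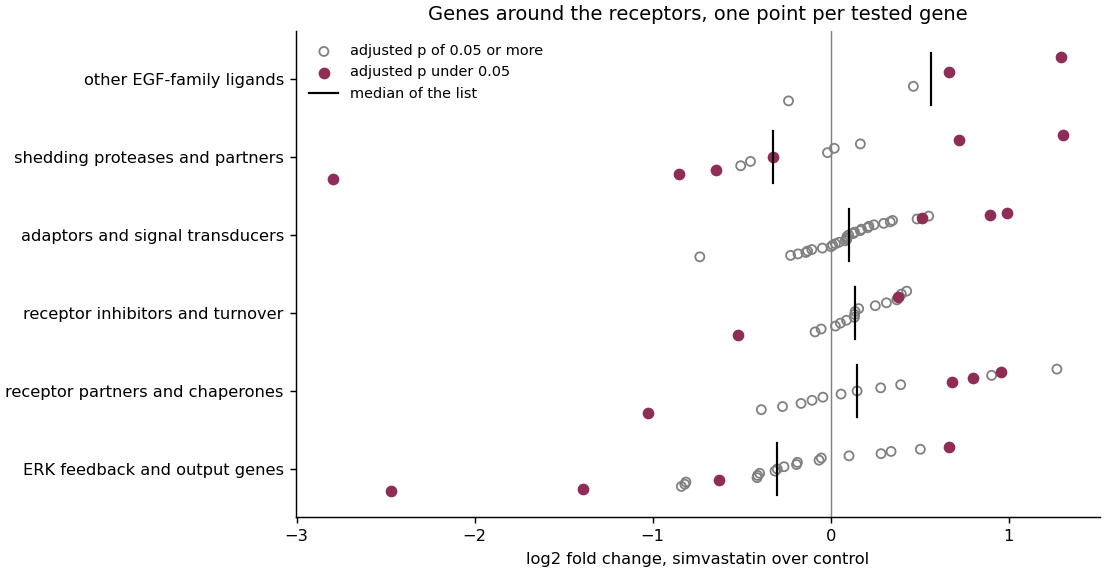
Log2 fold change, simvastatin over control, of each tested gene in 6 lists around the receptors, with filled points for edgeR adjusted p under 0.05, open points for the rest and a line at each list's median. The lists held calls in both directions, apart from the other ligands and the signal transducers, whose calls, 2 and 3, were all above 0.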

How the data were processed

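RNA was sequenced from 8 libraries of embryonic mouse cardiomyocytes, 4 with simvastatin and 4 controls, grouped by their labels. The deposited values are raw read counts per Ensembl gene, and the deposited exon length column gave other values, in bases. Trimmomatic 0.36, STAR 2.5.2b, Subread 1.5.2 with featureCounts, and the builds GRCm38 and mm10 are named in the submitters' processing notes, with no strand setting. Symbols came from GENCODE M21, which matched 99.5% of identifiers.

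Genes were kept by filterByExpr, scaled with TMM and tested with edgeR 4.0.16 (R 4.3.3), treatment as the only term, two-sided, Benjamini-Hochberg adjusted over 16126 genes. The common biological coefficient of variation was 22.2%. Alternatives were DESeq2 1.42.0, limma-voom (limma 3.58.1), other scalings and filters, set or replicate number as a term, each set alone, thinning to 30474586 counts and leaving out each library. DESeq2 and limma-voom for the interaction with set were chosen after seeing the data. The steps were tested on simulated data. Exact permutation tests used scipy 1.17.1 in Python 3.11.15. No 2 libraries of a group agreed within sampling noise. The genes named from a list are up to 4 with the smallest adjusted p under 0.05 and at least 1 CPM on average, except where a role is given as the reason, and cell markers and genes of the closing section are named beside a member's result. Some genes of the lists are not reported here by name. The members and lists were chosen with earlier results of these data known. Intervals and limits cover counting error or replicate spread only.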

Additional observations from a re-analysis of the deposited data

Results flagged for a closer look

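Erbb2 values lay on opposite sides of their controls in the 2 sets, with no call in either set alone (edgeR adjusted p = 0.0553 in set 1 and 0.188 in set 2). In set 1 it stood at 98.5 and 134.6 CPM with simvastatin and at 50.5 and 70.0 CPM in controls, and in set 2 at 70.2 and 63.1 CPM with simvastatin and at 72.0 and 85.7 CPM in controls. The log2 fold change in set 2 minus that in set 1 was -1.19 (edgeR interaction, unadjusted p = 0.00191, adjusted p = 0.114 over all genes tested). Such a reversal was not particular to Erbb2. The cardiomyocyte marker Nkx2-5 had a log2 fold change of 1.64 in set 1 alone and -1.73 in set 2 alone. No library of the 8 members stood apart from its group by Dixon's criterion, over 16 groups of 4 libraries looked at.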

How the results depend on the processing

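Nrg1 and Hbegf kept their direction and their call in all 19 alternatives. Set 1 alone gave 648 genes that rose and 979 that fell, against 1256 and 1549 over all libraries. In set 1 alone 4 members fell and 1 rose, Areg, which the filter kept there only through its simvastatin libraries. Without a library in turn, 817 to 1115 genes rose and 1185 to 1417 fell, 0 to 1 members rose and 2 to 3 fell. Members rising numbered 1 without the count filter (Areg) and 1 with set as a term (Erbb3). Egfr passed at -0.94 in DESeq2, -0.94 without the filter and -1.77 in set 1 alone, and leaving out libraries gave -1.23 to -0.71. Erbb3 passed at 0.56 with set as a term, and leaving out libraries gave 0.34 to 0.76. Ereg was -1.88 in set 1 alone and 0.13 in set 2 alone, and Erbb2 was -0.24 in set 2 alone. The cause of these differences was not tested, and each set alone holds only 2 libraries per group. The replicate block left 2 members falling and 0 rising, with 944 genes up and 1187 down. Deviations from the group means correlated at -0.14, 0.05, 0.13 and -0.16 between same-numbered libraries, and at -0.36 to 0.36 between the others. Whether the numbers pair the samples is not stated. These correlations cannot decide it, because deviations from a mean of 4 libraries are tied to each other. Depth limits Areg, with 12 counts over all controls.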

Other observations

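Of the EGF-family ligands 4 lie side by side within 375.5 kb of chromosome 5, in the order Epgn, Ereg, Areg and Btc. In the main test Btc was called higher and Ereg was not called, while Epgn and Areg were not tested. Areg lies 46.0 kb from Ereg. In set 1, Areg stood at 2.39 and 2.52 CPM with simvastatin and at 0.0570 and 0.172 CPM in controls, while its neighbour Ereg stood at 2.21 and 2.45 CPM with simvastatin and at 10.6 and 6.41 CPM in controls. In set 2, Areg stood at 0 and 0.593 CPM with simvastatin and at 0.0888 and 0.0324 CPM in controls, and Ereg at 4.87 and 4.94 CPM with simvastatin and at 4.03 and 4.95 CPM in controls. Btc, 208.8 kb beyond Areg and on the other strand, was higher in every simvastatin library than in any control. Epgn, which encodes epigen, had 0, 1, 14 and 0 counts with simvastatin and 1, 0, 0 and 4 counts in controls.

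Among the neuregulins Nrg1 alone stood above 1 CPM in any library. Nrg2 had at most 3 counts in any library and Nrg3 at most 2. Nrg4 stood at 0.52 ± 0.13 CPM with simvastatin and 0.61 ± 0.23 CPM in controls (edgeR adjusted p = 0.739).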
